A study of Mus musculus with 30 samples.

Results

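The mRNA of 60 genes that lie on mouse chromosome 11 around Egfr, the gene of the epidermal growth factor receptor, was compared between mice with and without EGFR in vascular smooth muscle cells. The genes were a named list of chromosome 11 genes within 20 Mb of Egfr, taken from the 41128 genes in the count tables. By the annotation, 515 genes of chromosome 11 lie within 20 Mb of Egfr, of which 212 code for protein, so the list covers part of the region. Egfr itself lies at chr11:16752203-16918158 on the plus strand (GRCm38/mm10). Of the 60 neighbours, 32 lie on its proximal side, towards the centromere, and 28 on its distal side, at distances from 0.053 Mb (Plek) to 13.5 Mb (Drg1). The rule for the list named position and no expression value, but position alone does not single out these 60 of the 515 genes. The genes were listed with earlier results of these data known. Adcy1, Camk2b, Pisd.ps1 and Gm11983, genes of the same window that were called between KO and WT, were not on the list. Counts over the 60 are therefore not those of an unselected sample of the region. All 60 genes were on chromosome 11 in the files and in the annotation.

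RNA came from aortae of 14 male mice and kidneys of 16 male mice (strain label C57Bl6J). The KO mice carried the floxed Egfr allele (Egfr flox/flox) and a tamoxifen-inducible Cre recombinase under the Smmhc (Myh11) promoter, which is active in smooth muscle cells, on the Y chromosome. WT mice had the Cre transgene but no loxP sites, and both genotypes received tamoxifen (1 mg per day for 5 days). From 7 days later, at an age of 6 weeks, the mice ate standard fat diet (SFD) or high fat diet (HFD) for 18 weeks. The aorta groups were WT-SFD (n = 3), WT-HFD (n = 4), KO-SFD (n = 3) and KO-HFD (n = 4), and each kidney group held 4 mice. By their numbers in the labels, 3 mice (a WT-SFD, a KO-SFD and a KO-HFD mouse) gave both tissues, so the tissues are not fully independent. Mice are called by group and replicate, numbered in order of deposit. The total count was 6403699 to 13052870 per aorta library (median 8998366) and 16354880 to 28331314 per kidney library (median 19544128).

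Genes beside a targeted locus are inherited together with it, because recombination seldom separates close neighbours. A mouse that is homozygous for a floxed allele is therefore also homozygous for the chromosome segment that came with that allele. A neighbour may also share regulatory DNA with the targeted gene. In this design every KO mouse had the floxed allele and no WT mouse had it, so the loss of EGFR and the inherited segment cannot be told apart by genotype. Cre under the Smmhc promoter acts in smooth muscle cells, which make up much of the aortic wall and little of the kidney, so the tissues differ in how many cells lose EGFR, while the inherited segment is in all cells.

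Levels are given as CPM (reads of a gene relative to the TMM-scaled total of its library), which do not correct for gene length, so they are compared between mice and not between genes. Differences are log2 fold changes of KO against WT from edgeR's quasi-likelihood test, on each diet or averaged over the diets. A gene is called changed at an adjusted p under 0.05 (Benjamini-Hochberg over all genes tested in a tissue). After the filter on low counts 57 of the 60 neighbours were tested in the aorta (not Fignl1, Ramp3 and Upp1) and 60 of 60 in the kidney.

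Egfr mRNA was lower in KO aortae. It stood at 46.7, 39.5 and 54.3 CPM in WT-SFD, 26.8, 35.5 and 28.0 CPM in KO-SFD, 65.1, 57.0, 51.2 and 57.0 CPM in WT-HFD and 27.5, 40.6, 39.7 and 33.4 CPM in KO-HFD. On either diet every KO aorta was below every WT aorta. Averaged over diets Egfr fell by 0.67 on the log2 scale (95% CI -0.90 to -0.44, edgeR adjusted p = 0.0141). The call was lost without KO-SFD replicate 1 (adjusted p = 0.0514) or 3 (adjusted p = 0.0948). It was also lost with library totals in place of TMM (-0.49, adjusted p = 0.214), under which the median of all genes was 0.17. In whole tissue, fewer cells of a type and less RNA per cell cannot be told apart. In the kidney the difference was -0.0016 (95% CI -0.20 to 0.20, edgeR adjusted p = 0.9993). The smooth muscle markers summed to group means of 11987 to 15810 CPM in the aorta, led by Acta2 (6954 CPM), and to 120 to 147 CPM in the kidney, led by Smtn (83.3 CPM). Of the 6 listed smooth muscle markers, Tagln and Cnn1 were listed at 0 in all libraries, as were all genes of their chromosome 9 and of chromosomes X, Y and MT, which therefore add nothing to the totals. None of the smooth muscle markers tested was called between genotypes (4 in the aorta, 3 in the kidney).

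Of the neighbours, Cobl was higher in KO aortae, and edgeR called no other neighbour between KO and WT in either tissue. On SFD 1 of 57 neighbours was called in the aorta (all genes: 0.0811%), on HFD 0 of 57 (all genes: 0.0811%) and averaged over diets 1 of 57 (all genes: 0.196%). In the kidney 0 of 60 were called on SFD (all genes: 0.0133%), on HFD (all genes: 0.00665%) and averaged over diets (all genes: 0.0133%). The numbers with an unadjusted p under 0.05 were 4 of 57 on SFD (all genes: 6.14%), 4 of 57 on HFD (all genes: 5.04%) and 6 of 57 averaged over diets (all genes: 6.9%) in the aorta. They were 11 of 60 on SFD (all genes: 8.37%), 4 of 60 on HFD (all genes: 1.65%) and 13 of 60 averaged over diets (all genes: 5.69%) in the kidney. In the aorta DESeq2 called 1 neighbour on SFD (Cobl; all genes: 0.116%), 2 on HFD (Nudcd3 and Ramp3; all genes: 0.228%) and 2 averaged over diets (Cobl and Tns3; all genes: 0.406%). In the kidney it called 0 on SFD (all genes: 0.169%), 0 on HFD (all genes: 0.00421%) and 1 averaged over diets (Nudcd3; all genes: 0.0999%). The median difference, averaged over diets, was 0.02 over the 57 neighbours and -0.01 over all genes in the aorta, and -0.02 over the 60 neighbours and 0.00 over all genes in the kidney. The median size of the difference, regardless of sign, was 0.13 for the neighbours and 0.12 for all genes in the aorta, and 0.084 and 0.091 in the kidney. The 95% confidence interval of a neighbour had a median half-width of 0.24 (aorta) and 0.19 (kidney). It gives the precision for a single gene, and a call after adjustment over all genes needs more. Kidney Ccm2, for example, differed by -0.39 and was not called (edgeR adjusted p = 0.740). All 60 neighbours in the kidney differed by less than 0.5 on the log2 scale, as did 54 of 57 in the aorta, where Cobl, Ikzf1 and Ddc lay beyond.

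**Figure D1:**
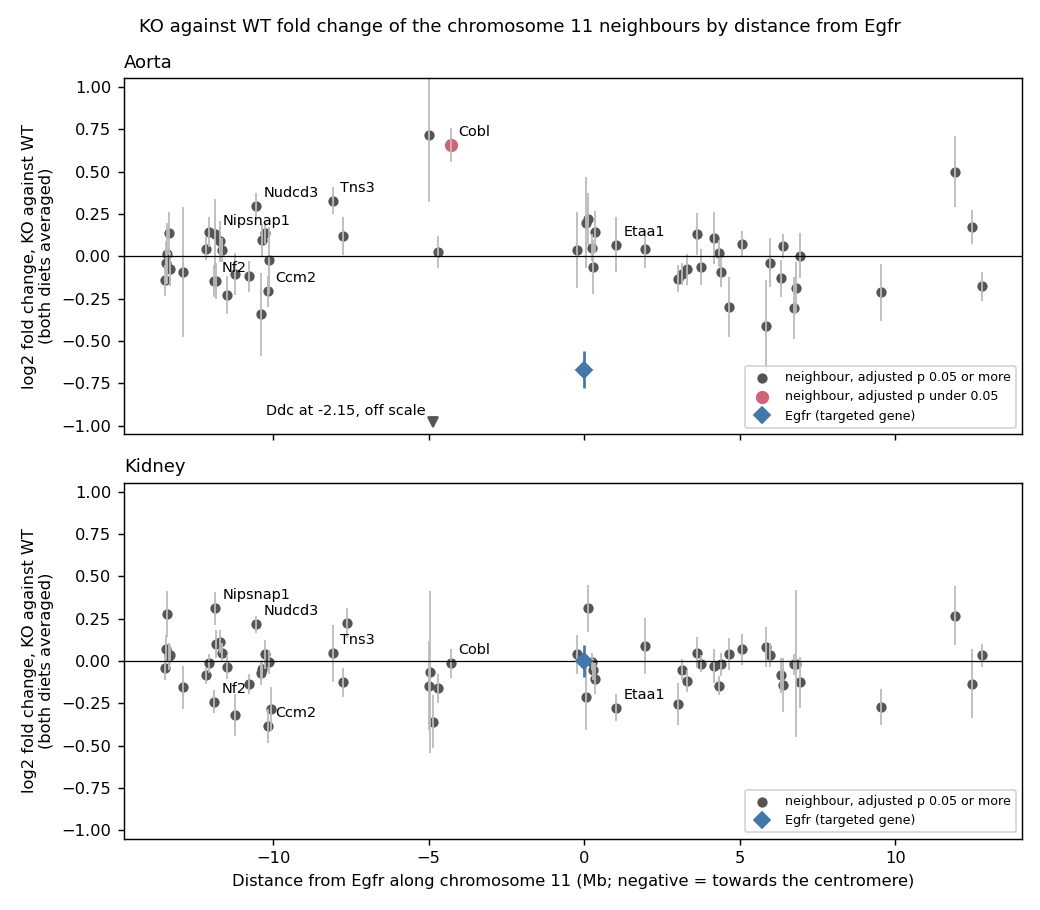
Log2 fold change of KO against WT averaged over diets (y axis, with standard errors) of each neighbour against its distance from Egfr in Mb (x axis, proximal side negative), in aorta and kidney. In the aorta Cobl stands out at 0.66 and Ddc lies off the scale at -2.15; in the kidney all points lie between -0.39 and 0.31.

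Cobl encodes cordon-bleu, a protein that nucleates actin filaments. It lies at chr11:12236608-12464960 on the minus strand, 4.29 Mb proximal of Egfr. In the aorta Cobl stood at 19.1, 18.8 and 19.9 CPM in WT-SFD and at 32.7, 39.98 and 35.4 CPM in KO-SFD, so all KO mice were above all WT mice. On HFD it was 31.2, 19.8, 21.4 and 25.3 CPM in WT and 29.8, 31.9, 34.6 and 33.2 CPM in KO, where 1 WT mouse lay within the KO range. The difference was 0.90 on SFD (1.87-fold, SE 0.15, 95% CI 0.58 to 1.23, edgeR adjusted p = 0.0371) and 0.41 on HFD (95% CI 0.13 to 0.69, edgeR adjusted p = 0.730). Averaged over diets it was 0.66 (1.58-fold, SE 0.10, 95% CI 0.44 to 0.87, edgeR adjusted p = 0.00791), and it stayed called without any of the 14 aortae in turn (0.61 to 0.73, adjusted p 0.001 to 0.04). The call on SFD held without WT-HFD replicate 1 or 2 or KO-HFD replicate 1 and was lost without any of the other 11 aortae, in the fit of only these 2 groups and without the 3 aortae richest in adipocyte transcripts (all genes called: 3 in each of the last 2 fits). The difference between the diets' effects was -0.49 (unadjusted p = 0.026, edgeR adjusted p = 1), so a dependence on diet was not shown. In the kidney Cobl ranged from 35.0 to 50.1 CPM, and KO differed from WT by -0.01 (95% CI -0.20 to 0.17, edgeR adjusted p = 0.985). The tissues were sequenced at different sites, and the difference between their effects was not tested. The gene overlaps the antisense gene Gm12002 over 36515 bases, and the strand setting of the counting is not given in the sources used here, so reads of the pair may not be separated.

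Adipocyte transcripts differed between the aortae and are given beside this result. The 10 adipocyte markers summed to 4258, 3296 and 518 CPM in WT-SFD, to 2820, 1144 and 514 CPM in KO-SFD, and to 466 to 604 CPM on HFD. All 10 were lower in KO averaged over diets, none was called and none was at 0 in all libraries, and the most abundant was Plin4 (mean 413 CPM). With the mean of these markers as a covariate Cobl differed by 0.64 (edgeR adjusted p = 0.00573). Without the 3 aortae above 2000 CPM (WT-SFD replicates 1 and 2 and KO-SFD replicate 1) the difference was 0.66 with an adjusted p of 0.119. Leucocyte marker sums were, like Cobl, without overlap on SFD (35.7 to 96.0 CPM in KO, 22.4 to 25.2 CPM in WT) and with overlap on HFD (14.3 to 64.9 CPM in KO, 18.5 to 48.5 CPM in WT). The 4 smooth muscle markers tested were all higher in KO averaged over diets (median 0.14), and their sums overlapped between genotypes on each diet. The part of leucocyte and smooth muscle transcripts in the Cobl difference was not tested.

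**Figure D2:**
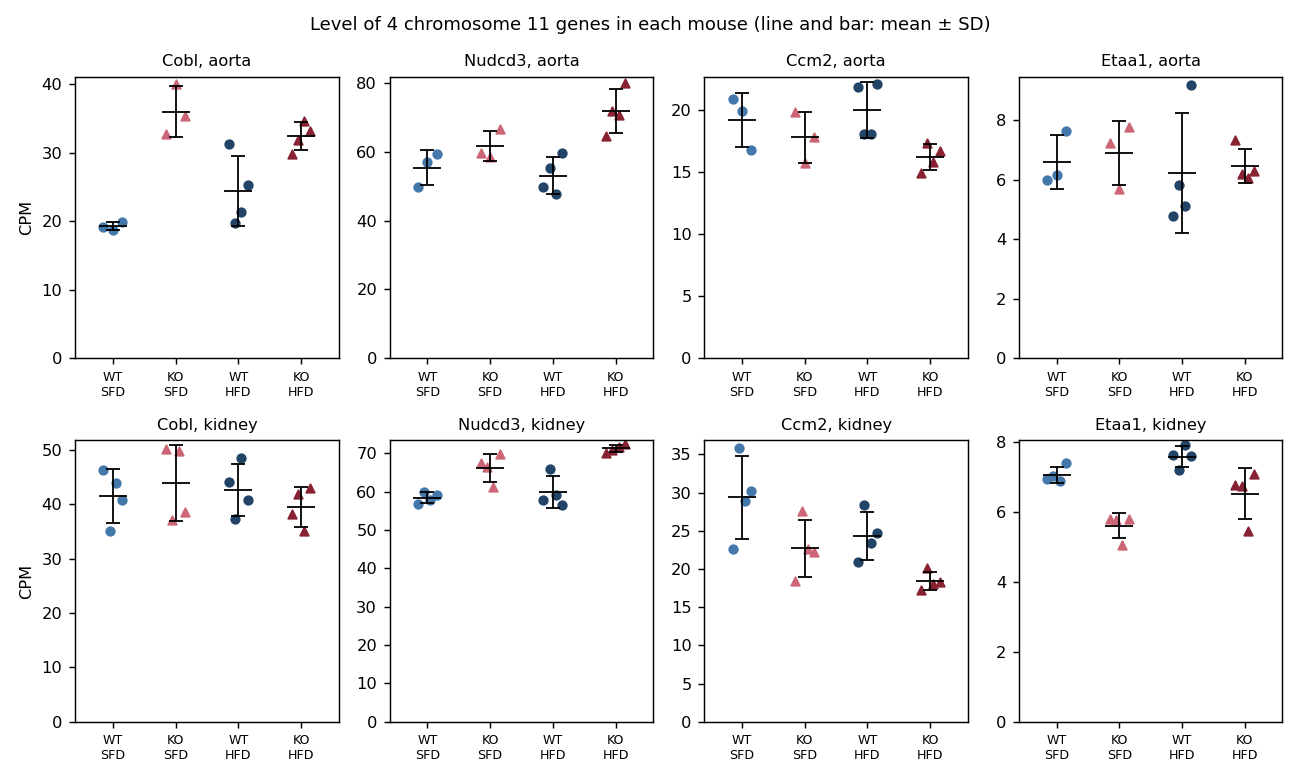
CPM of Cobl, Nudcd3, Ccm2 and Etaa1 in each mouse of the 4 groups of aorta and of kidney, with group means and SD. KO aortae on SFD (32.7 to 39.98 CPM) lie above WT aortae (18.8 to 19.9 CPM) for Cobl, and KO kidneys lie above WT kidneys on both diets for Nudcd3.

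The reference sequence of 250 bases before the start of transcription is shown for Cobl, the called neighbour, and for Nudcd3 and Ccm2, which had the smallest unadjusted p in each direction in the kidney. The sequences are those of RefSeq (GRCm38.p6), 5' to 3' on the strand of the gene, and were not read from these mice. Capitals mark the GC box GGGCGG on either strand (CCGCCC on the other).
Cobl, chr11:12464961-12465210, minus strand: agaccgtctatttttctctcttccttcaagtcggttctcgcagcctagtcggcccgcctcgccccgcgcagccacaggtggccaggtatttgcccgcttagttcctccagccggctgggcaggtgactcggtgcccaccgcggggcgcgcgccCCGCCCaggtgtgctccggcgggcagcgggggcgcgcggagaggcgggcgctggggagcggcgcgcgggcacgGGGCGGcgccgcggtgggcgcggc
Nudcd3, chr11:6200452-6200701, minus strand: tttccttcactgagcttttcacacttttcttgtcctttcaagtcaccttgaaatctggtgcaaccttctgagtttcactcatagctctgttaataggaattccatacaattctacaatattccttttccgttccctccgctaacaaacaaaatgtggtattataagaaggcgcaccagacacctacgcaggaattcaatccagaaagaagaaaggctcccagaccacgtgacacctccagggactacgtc
Ccm2, chr11:6546637-6546886, plus strand: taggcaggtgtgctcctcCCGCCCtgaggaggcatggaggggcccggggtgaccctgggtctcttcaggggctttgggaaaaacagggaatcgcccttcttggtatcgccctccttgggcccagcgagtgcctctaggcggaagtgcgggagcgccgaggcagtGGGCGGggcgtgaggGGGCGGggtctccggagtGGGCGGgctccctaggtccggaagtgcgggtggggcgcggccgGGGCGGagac
The Cobl window held 2 GC boxes, the Nudcd3 window 0 and the Ccm2 window 5. Over all 32851 promoters of the table, 32.7% held at least 1 GC box within a window of the same length. No CCAAT (33.8% of all promoters), TATAAA (12.4%) or CArG box (1.47%) was found in the 3 windows, on either strand, which says only that these letters are not in them.

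Among neighbours for membrane traffic, the endoplasmic reticulum, the cytoskeleton, ubiquitin and matrix, 10 of 18 were higher in KO aortae averaged over diets and 8 of 18 higher in KO kidneys. Nudcd3, a co-chaperone of the HSP90 system that acts on dynein, lies 10.6 Mb proximal of Egfr at chr11:6105691-6200415 on the minus strand. In the kidney it was 56.8, 59.9, 57.8 and 59.3 CPM in WT-SFD, 67.4, 66.6, 61.3 and 69.8 CPM in KO-SFD, 57.9, 65.9, 59.3 and 56.5 CPM in WT-HFD and 70.2, 70.9, 71.7 and 72.6 CPM in KO-HFD. Every KO kidney was above every WT kidney of the same diet. The difference was 0.18 on SFD, 0.25 on HFD and 0.22 averaged over diets (SE 0.050, 95% CI 0.11 to 0.32), with an edgeR adjusted p of 0.522, so it was not called, while DESeq2 gave 0.22 with an adjusted p of 0.0031. In the aorta it was 49.8, 57.0 and 59.3 CPM in WT-SFD, 59.7, 58.5 and 66.6 CPM in KO-SFD, 49.7, 55.2, 47.7 and 59.7 CPM in WT-HFD and 64.6, 71.9, 70.7 and 80.0 CPM in KO-HFD. The HFD groups did not overlap and the SFD groups did. The aortic difference was 0.44 on HFD (edgeR adjusted p = 0.297) and 0.30 averaged over diets (edgeR adjusted p = 0.356), and DESeq2 called it on HFD. Nudcd3 overlaps another coding gene, A730071L15Rik, on the opposite strand over 387 bases.

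No gene of this group other than Cobl was called between genotypes by edgeR. Sec61g, a subunit of the channel that moves new proteins into the endoplasmic reticulum, lies 0.244 Mb from Egfr and differed by 0.04 in each tissue. Rtn4 (Nogo), which shapes the endoplasmic reticulum, differed by -0.18 in the aorta (edgeR adjusted p = 0.728) and by -0.12 without WT-SFD replicate 1 (adjusted p = 0.927). Without the 3 aortae richest in adipocyte transcripts Rtn4 differed by -0.0449. Vps54, which takes part in the return of vesicles to the Golgi, was -0.15 and Ykt6, a membrane fusion protein, -0.13 in the kidney, where each had an unadjusted p under 0.05 and neither was called. Efemp1, a fibulin of the extracellular matrix, was 0.50 in the aorta (SE 0.21) and 0.27 in the kidney, and was not called.

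Signalling proteins and adaptors made up 14 neighbours, of which 8 of 13 tested were higher in KO aortae and 4 of 14 higher in KO kidneys. The group had a median of -0.10 in the kidney, beside 0.00 over all genes, and none was called. Markers of other cell types also differed between the kidneys. The 10 adipocyte markers summed to 249, 482, 259 and 444 CPM in WT-SFD, 604, 403, 312 and 971 CPM in KO-SFD, 301, 326, 218 and 240 CPM in WT-HFD and 372, 289, 383 and 224 CPM in KO-HFD, with 9 of 10 higher in KO, none called, none at 0 in all libraries and Pnpla2 the most abundant (mean 182 CPM). The 4 podocyte markers summed to 269, 234, 219 and 302 CPM in WT-SFD, 206, 167, 197 and 190 CPM in KO-SFD, 267, 214, 281 and 314 CPM in WT-HFD and 199, 238, 279 and 294 CPM in KO-HFD, with 0 of 4 higher in KO, none called, none at 0 in all libraries and Podxl the most abundant (mean 132 CPM). The 6 markers of the distal nephron and collecting duct summed to 8038, 8450, 8657 and 6416 CPM in WT-SFD, 9264, 8776, 8733 and 8876 CPM in KO-SFD, 6863, 6420, 7579 and 5823 CPM in WT-HFD and 7314, 7622, 4704 and 5835 CPM in KO-HFD, with 4 of 6 higher in KO, none called, none at 0 in all libraries and Umod the most abundant (mean 4490 CPM). On SFD the podocyte sums of KO kidneys were all below those of WT kidneys and the distal nephron sums all above them, and on HFD both overlapped between genotypes. The adipocyte sums overlapped on each diet. Of the markers tested, 6 of 7 for brown adipocytes (median 0.58), 5 of 5 for fibroblasts (median 0.22) and 3 of 3 for Schwann cells (median 0.21) were higher in KO kidneys. None of these was called, and the sums of each list overlapped between genotypes on each diet. Their part in the kidney differences of the neighbours was not tested. Ccm2, a scaffold protein of endothelial signalling that is mutated in cerebral cavernous malformation, lies 10.2 Mb from Egfr at chr11:6546887-6596744 on the plus strand. In the kidney it was 22.7, 35.9, 28.9 and 30.2 CPM in WT-SFD, 18.5, 27.5, 22.6 and 22.2 CPM in KO-SFD, 20.9, 28.3, 23.4 and 24.7 CPM in WT-HFD and 17.3, 20.2, 18.0 and 18.3 CPM in KO-HFD. KO and WT did not overlap on HFD and did on SFD. The difference averaged -0.39 (95% CI -0.60 to -0.17, edgeR adjusted p = 0.740). In the aorta it was 21.8, 18.1, 18.0 and 22.1 CPM in WT-HFD and 14.9, 17.4, 15.8 and 16.7 CPM in KO-HFD, again without overlap. The SFD groups overlapped, at 20.9, 19.9 and 16.7 CPM in WT and 19.8, 15.7 and 17.9 CPM in KO. The average difference was -0.21 (edgeR adjusted p = 0.711). Of the 5 endothelial markers tested in each tissue, 1 was higher in KO (median -0.13 in the aorta and -0.08 in the kidney), and none was called. The part of endothelial transcripts in the Ccm2 differences was not tested.

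Nf2 encodes merlin, an upstream inhibitor of growth in the Hippo pathway. It differed by -0.24 in the kidney (95% CI -0.38 to -0.10, edgeR adjusted p = 0.814), with 123, 107.5, 126 and 127 CPM in WT-SFD, 111, 86.4, 112 and 98.4 CPM in KO-SFD, 135, 112, 124 and 125 CPM in WT-HFD and 110.5, 107.5, 102 and 101 CPM in KO-HFD. The HFD groups did not overlap, and on SFD 1 WT kidney lay within the KO range. Tns3, a tensin that links integrins to actin, was 59.2, 55.1 and 54.7 CPM in WT-SFD, 79.0, 70.5 and 77.7 CPM in KO-SFD, 92.1, 67.3, 68.4 and 78.0 CPM in WT-HFD and 86.2, 97.1, 88.6 and 86.0 CPM in KO-HFD aortae. It did not overlap on SFD, and on HFD 1 WT mouse lay within the KO range. The average difference was 0.33 (95% CI 0.16 to 0.50, edgeR adjusted p = 0.263), which DESeq2 called (adjusted p = 0.0274), and the kidney gave 0.04 (edgeR adjusted p = 0.974).

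The 3 neighbours closest to Egfr on its distal side belong to this group. Plek (pleckstrin, a protein kinase C substrate of platelets and leucocytes) at 0.053 Mb differed by 0.20 in the aorta and -0.21 in the kidney, and Cnrip1 (a partner of a cannabinoid receptor), which overlaps Plek over 796 bases and lies 0.133 Mb away, by 0.22 and 0.31. Leaving out 1 library moved Plek to values from 0.0237 (without WT-SFD replicate 1) to 0.56 (without WT-SFD replicate 3) in the aorta. In the kidney Plek moved from -0.42 (without KO-HFD replicate 2) to -0.10 (without KO-HFD replicate 3). Kidney KO-HFD replicate 2 had the highest leucocyte marker sum (58.2 CPM) and the highest Plek (8.52 CPM) of the kidneys. The part of leucocyte transcripts in the Plek difference was not tested. Cnrip1 moved to 0.10 in the aorta (without KO-SFD replicate 2). The kidney difference of Cnrip1 was among the largest positive ones of the 60 neighbours (-0.39 to 0.31). Kidney levels of Cnrip1 were low, at 1.25 to 2.28 CPM, and KO and WT overlapped on each diet. Ppp3r1, the regulatory subunit of calcineurin at 0.241 Mb, differed by 0.05 in the aorta (0.0217 to 0.0992 with 1 library left out) and -0.0036 in the kidney. Grb10, an imprinted adaptor that dampens insulin signalling and lies 4.71 Mb away on the proximal side, differed by 0.03 and -0.16. None of these 4 was called in either tissue by edgeR's quasi-likelihood test, and in the kidney Cnrip1 was the only neighbour of the group with a positive difference and an unadjusted p under 0.05. Negative differences with an unadjusted p under 0.05 were found in Ccm2, Nf2, Vrk2 (-0.27, a nuclear envelope kinase) and Ramp3 (-0.28, which alters the ligand preference of the calcitonin receptor-like receptor).

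The 4 DNA repair genes were Hus1, a checkpoint clamp subunit, Fignl1, Ascc2 and Etaa1, an activator of the ATR kinase. In the kidney all 4 had values below 0 averaged over diets and on SFD and 3 of 4 on HFD, and in the aorta 3 of 3 tested had values above 0 averaged over diets (median 0.12). None was called in either tissue. Fignl1 stood at 0 to 1.12 CPM in the kidney, near the floor, so its sign there is uncertain. Kidney Ascc2 overlapped between genotypes on SFD, at 47.7 to 50.3 CPM in WT and 44.5 to 52.4 CPM in KO. Etaa1 lies 1.02 Mb distal of Egfr at chr11:17938756-17953875 on the minus strand. It was 6.94, 7.04, 6.89 and 7.40 CPM in WT-SFD, 5.79, 5.77, 5.06 and 5.79 CPM in KO-SFD, 7.63, 7.19, 7.90 and 7.60 CPM in WT-HFD and 6.78, 6.75, 5.44 and 7.09 CPM in KO-HFD kidneys. Every KO kidney was below every WT kidney of the same diet. The difference averaged -0.28 (95% CI -0.44 to -0.11, edgeR adjusted p = 0.814), while the aorta gave 0.07 (edgeR adjusted p = 0.952; 0.0141 to 0.19 with 1 library left out).

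Across the neighbours, KO and WT did not overlap on SFD in 5 of 57 in the aorta (all genes: 8.57%), namely Cobl, Tns3, Ikzf1 and C1d higher and Nf2 lower in KO, and on HFD in 2 of 57 (all genes: 4.18%), Nudcd3 higher and Ccm2 lower. No neighbour was without overlap on both diets in the aorta (all genes: 0.493%), where 5 of 212 genes within 20 Mb of Egfr and 5 of 1135 chromosome 11 genes farther away were. Those within 20 Mb were Adcy1, Gm11983, Pisd.ps1, Ppia and Egfros. Egfros overlaps Egfr over 15272 bases on the opposite strand, so reads of that pair may not be separated. In the kidney 5 of 60 did not overlap on SFD (all genes: 3.98%), namely Nudcd3 and Pik3ip1 higher and Etaa1, Mtmr3 and Vps54 lower, and 5 of 60 on HFD (all genes: 1.32%), namely Nudcd3 and Rnf185 higher and Ccm2, Etaa1 and Nf2 lower. Nudcd3 and Etaa1 were without overlap on both diets in the same direction, which held for 2 of 60 neighbours and for 9 of 15034 genes (0.0599%). Of those 9 genes, 5 lay within 20 Mb of Egfr, the others being Sfi1, Camk2b and Adcy1, and 0 of 1178 tested chromosome 11 genes farther away showed it.

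**Figure D3:**
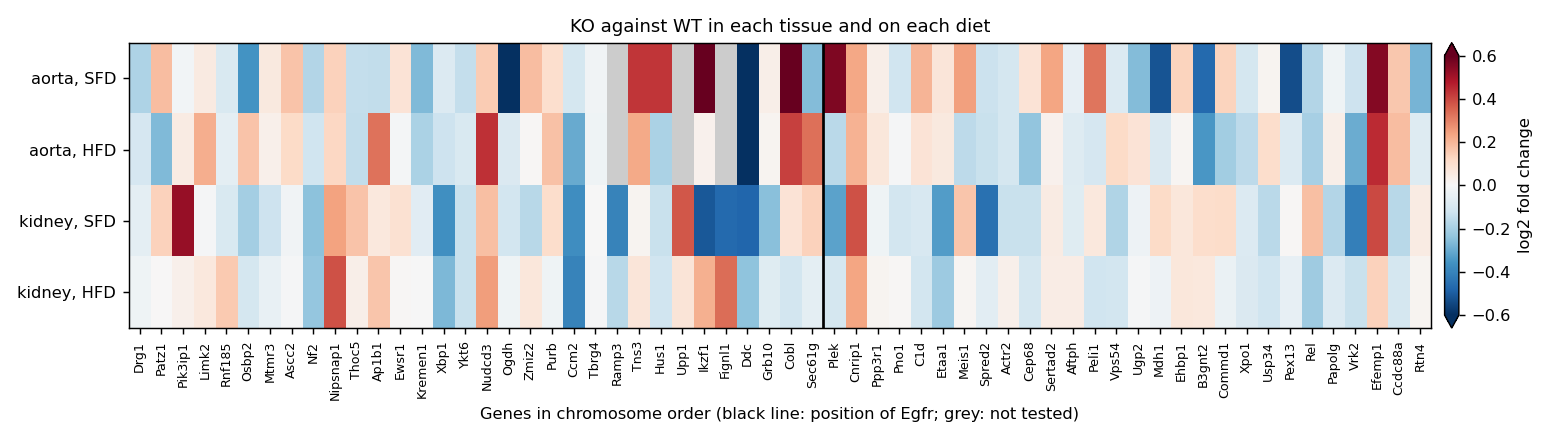
Log2 fold change of KO against WT of the 60 neighbours (columns, in chromosome order) in aorta and kidney on SFD and on HFD (rows). Colours are limited to -0.6 and 0.6, and grey marks a gene that was not tested. Nudcd3 is positive in all 4 rows (0.15, 0.44, 0.18 and 0.25), and comparisons of a tissue on different diets use different mice.

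Transcription factors and coregulators (9 neighbours) gave no call between genotypes. Ikzf1, a lymphocyte transcription factor, had the largest positive value of the averaged aortic differences (0.71, SE 0.39, edgeR adjusted p = 0.759). The leucocyte markers in the aorta summed to 23.5 CPM in WT-SFD, 58.4 CPM in KO-SFD, 29.2 CPM in WT-HFD and 30.9 CPM in KO-HFD (group means; the most abundant marker was Ptprc at 16.9 CPM and Cd3e was at 0), with 4 of the 4 tested higher and none called. On SFD the sums of all KO aortae (35.7 to 96.0 CPM) were above those of all WT aortae (22.4 to 25.2 CPM), and their part in the value of Ikzf1 was not tested. Meis1, a homeobox factor, differed by 0.04 in the aorta and 0.09 in the kidney. Xbp1, the transcription factor of the unfolded protein response, differed by -0.10 in the aorta and -0.32 in the kidney (unadjusted p = 0.0197, edgeR adjusted p = 0.851). The kidney value was -0.20 without WT-HFD replicate 3 (271 CPM), and the aortic value -0.0203 without WT-SFD replicate 1.

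The 7 genes of RNA processing, translation and nuclear export, which include Xpo1 (the main nuclear export receptor), Ewsr1 and Thoc5, did not reach an unadjusted p under 0.05 for KO against WT averaged over diets in either tissue. Their averaged differences had a median of -0.06 (aorta) and -0.04 (kidney).

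Metabolic genes (8 neighbours) had a median difference of -0.31 in KO aortae averaged over diets, with values below 0 in 6 of the 7 tested, and none was called. The adipocyte markers were lower in KO aortae as well, as given above. Ogdh, at -0.34, was -0.04 with the adipocyte covariate and 0.145 without the 3 aortae richest in adipocyte transcripts, Mdh1, at -0.30, was -0.10 and 0.0669, and Ugp2, at -0.09, was -0.05 and 0.0976. With 1 library left out, Ogdh ranged from -0.54 (without KO-SFD replicate 1) to -0.0957 (without WT-SFD replicate 1), Mdh1 from -0.46 (without WT-SFD replicate 3) to -0.17 (without KO-SFD replicate 3) and Ugp2 from -0.16 (without WT-SFD replicate 3) to -0.0080 (without WT-SFD replicate 2). Nipsnap1, a mitochondrial protein linked to mitophagy, differed by 0.31 in the kidney (95% CI 0.10 to 0.52, edgeR adjusted p = 0.827), with levels of 191 to 293 CPM in WT and 256 to 377.5 CPM in KO. In the aorta Nipsnap1 differed by 0.13, by 0.20 with the adipocyte covariate and by 0.64 without the 3 aortae richest in adipocyte transcripts. Upp1, which breaks down uridine, differed by 0.22 in the kidney (edgeR adjusted p = 0.851). Ddc, which makes dopamine and serotonin from their precursors, had the largest averaged difference of all neighbours in the aorta, -2.15, on levels of 0 to 10.1 CPM. The difference was not called (edgeR adjusted p = 0.711), and without WT-SFD replicate 1 (10.1 CPM) it was -0.60. On HFD, WT-HFD replicate 2 stood at 3.42 CPM, beside 0.10, 0.10 and 0.64 CPM in the other WT-HFD aortae.

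For HFD against SFD, averaged over genotypes, 5 of 57 neighbours were called in the aorta (all genes: 3.79%), of which 4, all metabolic genes, were lower (all genes: 3.47%) and 1 was higher (all genes: 0.318%). At an unadjusted p under 0.05 there were 6 of 57 (all genes: 18.5%), and the median size of the diet difference, regardless of sign, was 0.11 for the neighbours and 0.16 for all genes. Ogdh, a subunit of the 2-oxoglutarate dehydrogenase of the citric acid cycle, fell by 1.00 (edgeR adjusted p = 0.0356). It stood at 686, 448 and 167 CPM in WT-SFD, 426, 260 and 172 CPM in KO-SFD and 151 to 200 CPM on HFD. Mdh1, the cytosolic malate dehydrogenase, fell by 0.70 (edgeR adjusted p = 0.0403) and Ugp2, which makes UDP-glucose, by 0.41 (edgeR adjusted p = 0.0277). Pex13, a part of the peroxisomal import machinery, fell by 0.70 (edgeR adjusted p = 0.0467) and is named although outside the rule for named genes. Tns3 rose by 0.34 (edgeR adjusted p = 0.0316). Adipocyte transcripts moved with these genes: the mice with the highest marker sums (WT-SFD replicates 1 and 2 and KO-SFD replicate 1) were also the highest for Ogdh, Mdh1 and Pex13. DESeq2 called the same 5 neighbours for diet (all genes: 6.24%). With the adipocyte covariate 0 neighbours were called (1 of 14796 genes), and without those 3 aortae also 0 (0 of 15997 genes). Leaving out each aorta in turn gave 1 neighbour without WT-HFD replicate 3 (173 genes in all), 5 without KO-SFD replicate 3 (892 genes) and 7 without WT-SFD replicate 3 (1855 genes). It gave 0 neighbours without any of the other 11, of which KO-SFD replicate 2 left 412 genes called, KO-HFD replicate 2 left 164, KO-HFD replicate 1 left 1 and the other 8 left 0. The brown adipocyte markers were 612 CPM in WT-SFD, 282 CPM in KO-SFD, 69.1 CPM in WT-HFD and 56.8 CPM in KO-HFD (group means, led by Ucp1). In the kidney Xbp1 rose by 0.46 with HFD (edgeR adjusted p = 0.0458; 1 of 60 neighbours, all genes: 4.48%), and this call was lost with RLE factors or library totals. DESeq2 called Spred2 and Xbp1 (all genes: 6.42%). In the kidney 7 of 60 neighbours had an unadjusted p under 0.05 for diet (all genes: 17.9%), and the median size was 0.056 for the neighbours and 0.12 for all genes. In 9 of the 16 fits that each left out 1 kidney, no neighbour was called for diet, while 488 to 721 genes in all were called over the 16 fits.

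**Figure D4:**
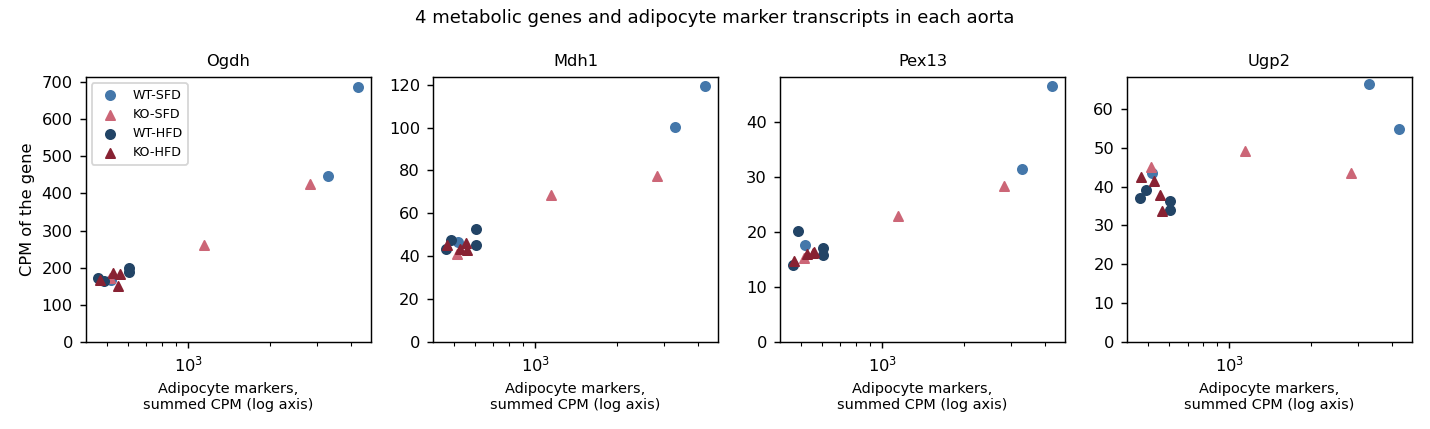
CPM of Ogdh, Mdh1, Pex13 and Ugp2 (y axes) in each aorta against the summed CPM of the 10 adipocyte markers (x axis, log scale), by group. The HFD aortae gather at 466 to 604 CPM of the markers, with Ogdh at 151 to 200 CPM.

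By distance from Egfr, the proximal side held a larger share of genes with an unadjusted p under 0.05 than the distal side. In the kidney the share was 28.1% of the 32 proximal neighbours, 14.3% of the 28 distal neighbours, 22.8% of 79 other genes within 20 Mb proximally, 2.63% of 76 distally, 5.86% of chromosome 11 genes farther away and 5.69% of all genes. In the aorta the same shares were 17.2% of 29, 3.57% of 28, 10.3% of 68, 5.81% of 86, 6.87% and 6.9%. Genes are not independent replicates, the neighbours share their mice, and these shares are given as a description. Of the kidney neighbours with an unadjusted p under 0.05 averaged over diets, 4 were higher and 9 lower in KO (all genes: 3.05% and 2.65%). The interaction with diet gave 0 calls in either tissue (all genes: 0% in each), with 2 of 57 neighbours at an unadjusted p under 0.05 in the aorta (all genes: 4.1%) and 0 of 60 in the kidney (all genes: 3.23%), and DESeq2 called 0 in each.

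**Figure D5:**
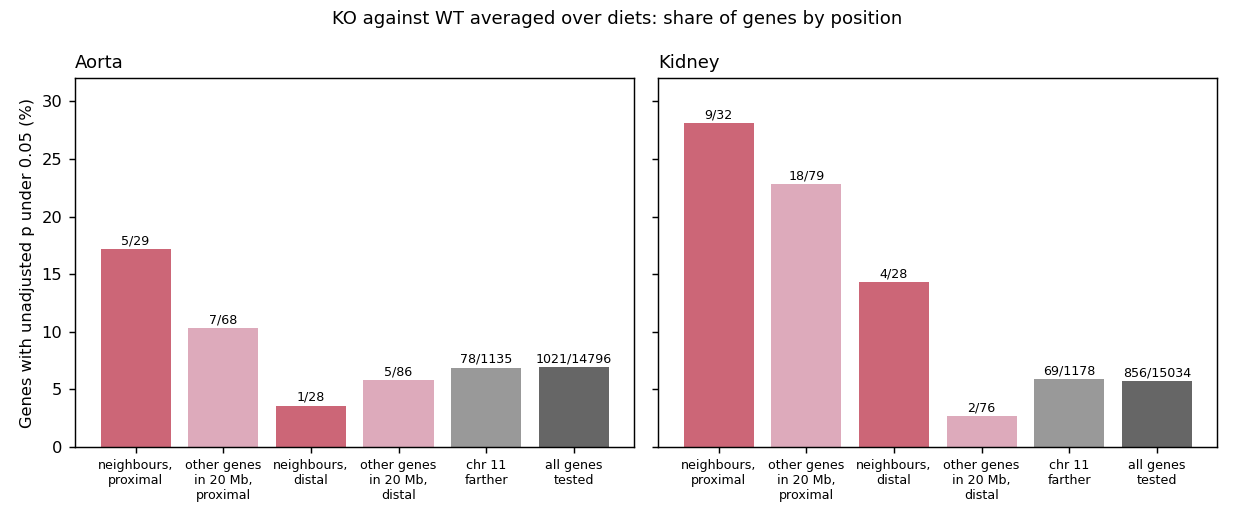
Percentage of genes with an unadjusted p under 0.05 for KO against WT averaged over diets, by position on chromosome 11 relative to Egfr, in aorta and kidney. The proximal bars reach 28.1% (neighbours) and 22.8% (other genes) in the kidney, beside 5.69% of all genes.

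Other genes in the same window that were not on the list were called. Adcy1, an adenylyl cyclase, stood at 3.03 to 8.36 CPM in WT and 198 to 388 CPM in KO aortae (log2 fold change 5.61, edgeR adjusted p = 1.22e-11), with -1.23 in the kidney (edgeR adjusted p = 0.148), where DESeq2 called it (-1.23, adjusted p = 1.66e-04). Camk2b, a calcium/calmodulin-dependent kinase, stood at 2.15 to 8.13 CPM in WT and 0.051 to 0.44 CPM in KO kidneys. Its log2 fold change there was -4.07 (edgeR adjusted p = 1.10e-04) and rests on KO values near the floor. The aorta gave a positive value of 0.29. The aortic value was 0.18 to 0.39 with 1 library left out and 0.52 without the 3 adipocyte-rich aortae. Pisd.ps1, a pseudogene with close copies whose count is therefore uncertain, fell by 1.81 in KO aortae (edgeR adjusted p = 2.49e-07). In the kidney it was -0.79 (edgeR adjusted p = 0.1495), at 73.8 to 107 CPM in WT-SFD, 32.3 to 50.98 CPM in KO-SFD, 50.6 to 96.5 CPM in WT-HFD and 46.98 to 79.5 CPM in KO-HFD, without overlap on SFD. DESeq2 called it there (-0.79, adjusted p = 8.41e-04), as did edgeR without KO-HFD replicate 1 (-0.90, adjusted p = 0.0295). Gm11983 was at 0 in all 7 WT aortae and at 0.139 to 1.88 CPM in KO aortae (edgeR adjusted p = 0.0154), for which no fold is given. Its call was lost without KO-SFD replicate 3 (adjusted p = 0.053) and without the 3 adipocyte-rich aortae (adjusted p = 0.132), and DESeq2 gave it no adjusted p.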

How the data were processed

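For rRNA-depleted libraries, the submitters' processing notes name cutadapt, TopHat, mm10 and featureCounts. The deposited values are raw counts per gene, 1 column per mouse, and 0 columns were left unused. Each tissue was fitted alone, since aorta libraries were read at a university unit and kidney libraries at a company. No 2 libraries were copies (smallest chi-square per gene 9.22 over 91 aorta pairs and 9.84 over 120 kidney pairs).

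Counts were scaled by TMM, filtered by filterByExpr (14796 genes left in the aorta, 15034 in the kidney) and tested in 1 fit of all 4 groups per tissue with edgeR 4.0.16 (glmQLFit and glmQLFTest, Benjamini-Hochberg adjustment) in R 4.3.3 with limma 3.58.1. Common dispersions were 0.0531 (aorta) and 0.0372 (kidney). Confidence intervals use the degrees of freedom of the test. Python 3.11.15, numpy 2.4.6, pandas 2.3.3, scipy 1.17.1 and matplotlib 3.10.9 served for tables and plots. Scripts were tested on simulated data. GENCODE vM21 gave the positions of 40254 of 41128 identifiers, and RefSeq promoters were matched for 56 of 60 neighbours.

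Genes are named if they were called between KO and WT, were among the 3 smallest p per direction and tissue, did not overlap on both diets, were the 3 nearest to Egfr on a side, or were called for diet (up to 3 per direction and tissue), as are Egfr and genes off the list within 20 Mb that were called between KO and WT. Others are given as members of their role group, chosen after their values were seen. The neighbours, role groups and 13 marker lists were chosen with earlier results of these data known. Alternatives were DESeq2 1.42.0, RLE factors, library totals, no filter, an adjusted p under 0.001 (the limit of the study), a fit of 2 groups alone, an adipocyte covariate (mean log2 CPM of the markers), a window of 10 Mb, and leaving out each library. The fit without the 3 adipocyte-rich aortae was chosen after seeing the data.

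The other lists held endothelium, skeletal muscle, blood, Schwann cell, fibroblast, proximal tubule, distal nephron, podocyte and adrenal markers. Of their tested genes, 0 were called between genotypes averaged over diets in either tissue. No blood marker was tested in either tissue and no distal nephron marker in the aorta, so these lists say nothing there. In the aorta 0 of the 4 tested Schwann cell markers were higher in KO (median -1.06).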

Additional observations from a re-analysis of the deposited data

Results flagged for a closer look

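Of 139 groups of 4 mice tested for a value far from the rest (Dixon's ratio, the gap to the nearest value over the whole range), 9 were flagged, and chance flags about 1 in 20 groups. In the aorta Ddc stood at 3.42 CPM in WT-HFD replicate 2 (ratio 0.838), Nf2 at 87 CPM in WT-HFD replicate 4 (0.957) and Etaa1 at 7.34 CPM in KO-HFD replicate 1 (0.83). In the kidney Ddc stood at 194 CPM in WT-SFD replicate 2 (0.956), Etaa1 at 5.06 CPM in KO-SFD replicate 3 (0.967) and Ugp2 at 127 CPM in WT-SFD replicate 4 (0.882). Ogdh stood at 560 CPM in KO-SFD replicate 3 (0.855), Xbp1 at 271 CPM in WT-HFD replicate 3 (0.854) and Pisd.ps1, which is not a neighbour on the list, at 79.5 CPM in KO-HFD replicate 1 (0.937).

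Adcy1, also not on the list, was higher in every KO aorta and lower in every KO kidney than in every WT mouse of the same diet. Its log2 fold changes differed by 6.84 between the tissues, and this difference was not tested.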

How the results depend on the processing

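Within a tissue no pairing of the groups was possible, because the labels give no mouse numbers shared between its groups. The 3 mice that gave both tissues pair an aorta with a kidney, and each tissue was fitted alone. Counts of called neighbours that moved, and values that turned sign, are grouped by setting. DESeq2 called 2 neighbours on HFD in the aorta (41 of 17956 genes), 2 averaged over diets (54 of 13293), 1 in the kidney averaged over diets (15 of 15020) and 2 in the kidney for diet (1082 of 16861). At an adjusted p under 0.001 the aortic counts on SFD, averaged over diets and for diet, and the kidney count for diet, were 0. Fitting only the 2 groups compared gave 0 on SFD in the aorta. Library totals moved the median of all aortic genes to 0.27 on SFD, 0.17 averaged over diets and -0.20 for the interaction, so values under them are read relative to these shifts. They gave 3 neighbours called for diet in the aorta (Mdh1, Ogdh and Pex13) and 0 in the kidney. Egfr was -0.49 in the aorta (edgeR adjusted p = 0.214). Nf2 (0.0402), Ugp2 (0.0888) and Xbp1 (0.0583) were above 0 in the aorta but below the median of 0.17. Relative to all genes their sign therefore did not turn. RLE factors gave 0 for diet in the kidney, and Egfr there was 0.0001. Over all tested chromosome 11 genes around Egfr, the aortic median was 0.0215 within 20 Mb (212 genes) and -0.0009 within 10 Mb (69 genes). With the adipocyte covariate 0 were called for diet in the aorta, and Sec61g (-0.0128) and Grb10 (-0.0311) turned negative. Without the 3 adipocyte-rich aortae, which leaves WT-SFD with 1 library assumed to vary like the others, the aortic counts on SFD, averaged over diets and for diet were 0, Etaa1 (-0.0522), Sec61g (-0.15), Grb10 (-0.0827) and Plek (-0.22) turned negative, and Ugp2 (0.10), Ogdh (0.14) and Mdh1 (0.0669) positive. The cause of these changes was not tested.

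Leaving out each library in turn gave 0 to 1 calls on SFD (all genes: 5 to 28), 1 to 2 averaged over diets (all genes: 22 to 38) and 0 to 7 for diet (all genes: 0 to 1855) in the aorta, and 0 to 3 for diet in the kidney (all genes: 488 to 721). Egfr ranged from -0.73 to -0.60 in the aorta, called in 12 of 14, and from -0.0504 to 0.0559 in the kidney. Signs also turned for Grb10 (-0.0213 to 0.12), Nipsnap1 (-0.0043 to 0.29) and Sec61g (-0.0781 to 0.18) in the aorta, and for Cobl (-0.0498 to 0.0218), Mdh1 (-0.0134 to 0.0789), Ppp3r1 (-0.0192 to 0.0190), Sec61g (-0.0568 to 0.10), Tns3 (-0.0596 to 0.13) and Ugp2 (-0.0490 to 0.0169) in the kidney; none of these was called with all libraries in the fit. The aorta had 3 mice per SFD group, shallower libraries and a higher common dispersion than the kidney (0.0531 and 0.0372). The part of each in the differences that could be seen there was not tested.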
